A study of Drosophila melanogaster with 2 samples.

Results

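The 36 genes described here run the cell division cycle and the copying of DNA in Drosophila melanogaster. They were taken from a list by name and grouped by role: 5 cyclins, 7 kinases, 2 Cdc25 phosphatases, 2 activators of the anaphase-promoting complex (APC/C), 5 genes of the E2F and RB branch with the kinase inhibitor dap, 14 replication licensing genes and the sliding clamp PCNA. In the gene annotation 35 matched by symbol, and lat matched as Orc3 by its synonym latheo. They are 36 of the 13968 protein-coding genes on the 7 chromosome arms. Peak lists came from chromatin immunoprecipitation with sequencing (ChIP-seq), which maps the DNA a protein sits on. Whole embryos aged 0 to 24 hours carried the CG4730 protein fused to enhanced green fluorescent protein (eGFP), and an antibody to GFP recovered the bound chromatin. Both libraries, biological replicates 1 and 2, belong to 1 group, so no other genotype or treatment was compared, and such embryos mix all tissues and many stages. The promoter driving the tagged gene and the read depth are not stated in the labels, and a control library was not analysed here. A member was called where a peak summit of the authors' pooled list, kept at an irreproducible discovery rate (IDR) of 0.01, lay within 500 bp of any transcript start.

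As background, cyclins switch on cyclin-dependent kinases (Cdks), which drive cells into DNA synthesis and mitosis. Cdc25 phosphatases activate those kinases, while the APC/C marks mitotic cyclins for destruction. E2F factors with their partner Dp turn on genes for DNA synthesis, and RB proteins hold them back. Before each round of replication the origin recognition complex (ORC), Cdc6 and Cdt1 (dup in flies) load the ring-shaped MCM helicase onto DNA, which is called licensing, and geminin blocks Cdt1. In fly embryos the earliest cycles run on maternal products without gap phases, and later cycles wait for transcription of string (stg), the Cdc25 phosphatase of mitosis. Promoters of fly replication genes are known for E2F sites and for the DNA replication-related element (DRE).

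The sequence under the summits of members is shown first, because the letters differ between them. Each line is read 5′ to 3′ on the gene's strand of dm6 with the summit at base 61 of 121, and lies outside every annotated exon. Capitals mark the TATA box letters TATAAA or the homeodomain letters TAATTA, searched on both strands, and a line without capitals holds neither. Cdk1 and aurA encode mitotic kinases, Mcm2 a helicase subunit, CycE the cyclin of S-phase entry and E2f1 the activating E2F factor. The first 3 lie before gene starts, at chr2L:10386421-10386541, chr3R:11962914-11963034 and chr3R:8264834-8264954, and the other 3 in introns, at chr2L:15747185-15747305, chr3R:21627858-21627978 and chr3R:21644221-21644341.
Cdk1: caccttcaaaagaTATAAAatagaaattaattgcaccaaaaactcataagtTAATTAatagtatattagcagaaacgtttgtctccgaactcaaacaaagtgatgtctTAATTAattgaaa
aurA: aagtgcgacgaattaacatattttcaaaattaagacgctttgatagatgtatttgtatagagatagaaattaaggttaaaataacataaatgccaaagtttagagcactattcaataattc
Mcm2: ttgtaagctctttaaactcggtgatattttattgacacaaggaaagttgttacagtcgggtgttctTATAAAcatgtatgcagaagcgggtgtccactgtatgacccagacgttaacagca
CycE: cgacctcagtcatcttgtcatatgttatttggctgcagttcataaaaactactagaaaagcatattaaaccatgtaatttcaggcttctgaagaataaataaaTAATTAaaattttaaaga
E2f1, strongest: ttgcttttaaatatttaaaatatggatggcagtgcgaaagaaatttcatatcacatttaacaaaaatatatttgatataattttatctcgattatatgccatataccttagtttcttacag
E2f1, weakest: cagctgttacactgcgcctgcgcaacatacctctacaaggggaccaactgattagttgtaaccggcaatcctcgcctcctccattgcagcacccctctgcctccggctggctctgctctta

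Base composition varied widely among the 12 promoter or intragenic summits of members. In the 101 bases centred on each summit, the A and T share was 76.2% for aurA and the strongest E2f1 peak, 73.3% for Cdk1 and CycE, and 70.3% for fzr. It was 69.3% for dpa, the weaker Dp peak and the middle E2f1 peak. The median over all 3551 pooled peaks on the arms was 67.3%, with quartiles of 59.4% and 73.3%. Below that median lay Mcm2 at 59.4%, the stronger Dp peak at 58.4%, dup at 51.5% and the weakest E2f1 peak at 40.6%. A higher share was found in 76.9% of pooled windows for the stronger Dp peak, in 88.5% for dup and in 97.8% for the weakest E2f1 peak.

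Of the 36 members, 7 were called (19.4%), against 13.7% of all protein-coding genes. They were the kinase genes Cdk1 and aurA, the APC/C activator gene fzr, the E2F partner gene Dp, and the licensing genes Mcm2, dpa (the Mcm4 subunit) and dup. The share is near that of coding genes at large. No member of the ORC, no cyclin, no Cdc25 phosphatase and not PCNA was called. In replicate 1's own thresholded list 5 members were called, against 9.88% of coding genes. In replicate 2's own list 5 were called too, against 10.5% of coding genes. Cdk1, Dp, Mcm2 and dpa were called in both. Without replicate 2 the calls of dup and fzr were lost, and without replicate 1 those of aurA and fzr.

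**Figure D1:**
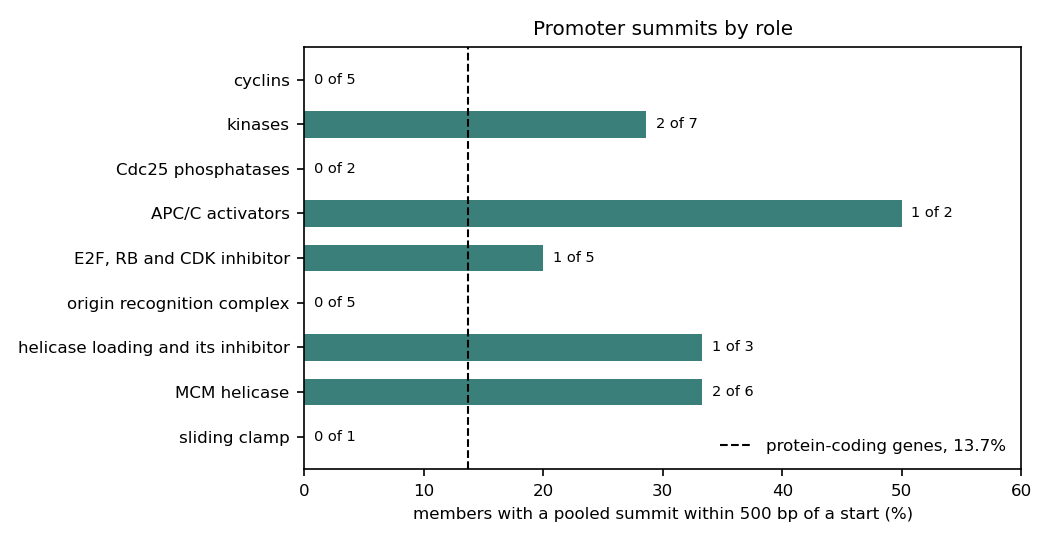
Share of members of each role with a pooled summit within 500 bp of a start, in percent; bars carry the counts, and the dashed line is the share of all protein-coding genes, 13.7%. The bars rest on 1 to 7 genes each, with 0 of 5 cyclins, 2 of 7 kinases, 0 of 5 ORC genes and 2 of 6 MCM genes.

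Neither the cyclin and kinase genes nor the licensing genes were called consistently more often. Among cyclin and kinase genes 2 of 12 had a promoter summit (16.7%), and among licensing genes 3 of 14 (21.4%), beside 13.7% of coding genes. Both cyclin and kinase calls were kinases. In replicate 1's list the counts were 2 of 12 and 2 of 14, and in replicate 2's 1 of 12 and 3 of 14. Within 100 bp they were 0 of 12 and 2 of 14, beside 3.97% of coding genes. Within 1000 bp they were 4 of 12 and 3 of 14, beside 16.5% of coding genes, and with any base of a peak within 500 bp again 4 of 12 and 3 of 14, beside 14.8%. The order of the shares thus turned round in replicate 1's list and with the wider rules, which added Cdk4 and CycE. The median pooled signal of the strongest ranked peak near a start, with genes lacking such a peak at 0, was 26.0 for the 12 and 26.5 for the 14, and 26.9 for coding genes. These are counts of few genes and the difference was not tested. The signal is the authors' own value per peak, with no stated unit. It is compared here only within a list, since the pooled list runs higher than the replicates' lists.

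Among cell cycle kinases, Cdk1 drives mitotic entry. Its peak lay on 2L from 10386311 to 10386650, with the summit 219 bp upstream of the Cdk1 start and 181 bp upstream of mRpS7, a mitochondrial ribosomal protein gene on the opposite strand. Its signal was 43.5 in replicate 1 and 54.9 in replicate 2, with a mean of 49.2 ± 8.06 (SD, n = 2). Both values passed the IDR threshold, and the pooled signal of 95.9 put the peak at rank 2097 of the pooled list.

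Aurora A, encoded by aurA, acts at centrosomes in mitosis. Its peak ran from 11962804 to 11963143 of 3R, with the summit 150 bp before aurA and 169 bp upstream of CG3281 on the opposite strand. The signal was 60.6 in replicate 1 and 26.8 in replicate 2 (43.7 ± 23.9, SD, n = 2). Only the value of replicate 1 passed the threshold, and in replicate 2 the peak had an IDR of 0.799. Aurora B, encoded by aurB, is the kinase of the chromosomal passenger complex. A peak 270 bp upstream of aurB had 42.4 in replicate 1, 30.3 in replicate 2 and 72.9 in the pooled ranked list, with an IDR of 0.646, and was not kept. The authors' conservative list also gave 7 called members, 6 of them the same, with aurB in place of aurA, beside 12.7% of coding genes.

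The other kinase genes had weaker ranked peaks. Cdk4, the partner of cyclin D, reached a pooled signal of 26.5 near a start, Cdk7, the Cdk-activating kinase, 25.6, and polo, a kinase of mitotic spindles, 38.9. Cdk2, the partner of cyclin E, had a ranked peak only in replicate 2, at 18.5. Just outside the 500 bp limit, a kept peak lay 627 bp upstream of Cdk4, with a pooled signal of 68.2, a value of 38.9 in replicate 2 and no ranked peak in replicate 1. Just inside it lay the peak of fzr, at 464 bp.

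Among the cyclins the strongest ranked peaks near a start had pooled signals of 44.0 for CycE, 20.2 for CycB, 15.8 for CycA and 13.55 for CycB3, and CycD had none. CycA, CycB and CycB3 encode mitotic cyclins, and CycD the growth-linked partner of Cdk4. CycE carried a kept peak inside the gene. It lay in an intron on 2L from 15747075 to 15747414, 905 bp downstream of the outermost start and 635 bp upstream of the next. The signal was 85.0 in replicate 1 and 69.3 in replicate 2 (77.1 ± 11.1, SD, n = 2), and both passed the threshold.

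**Figure D2:**
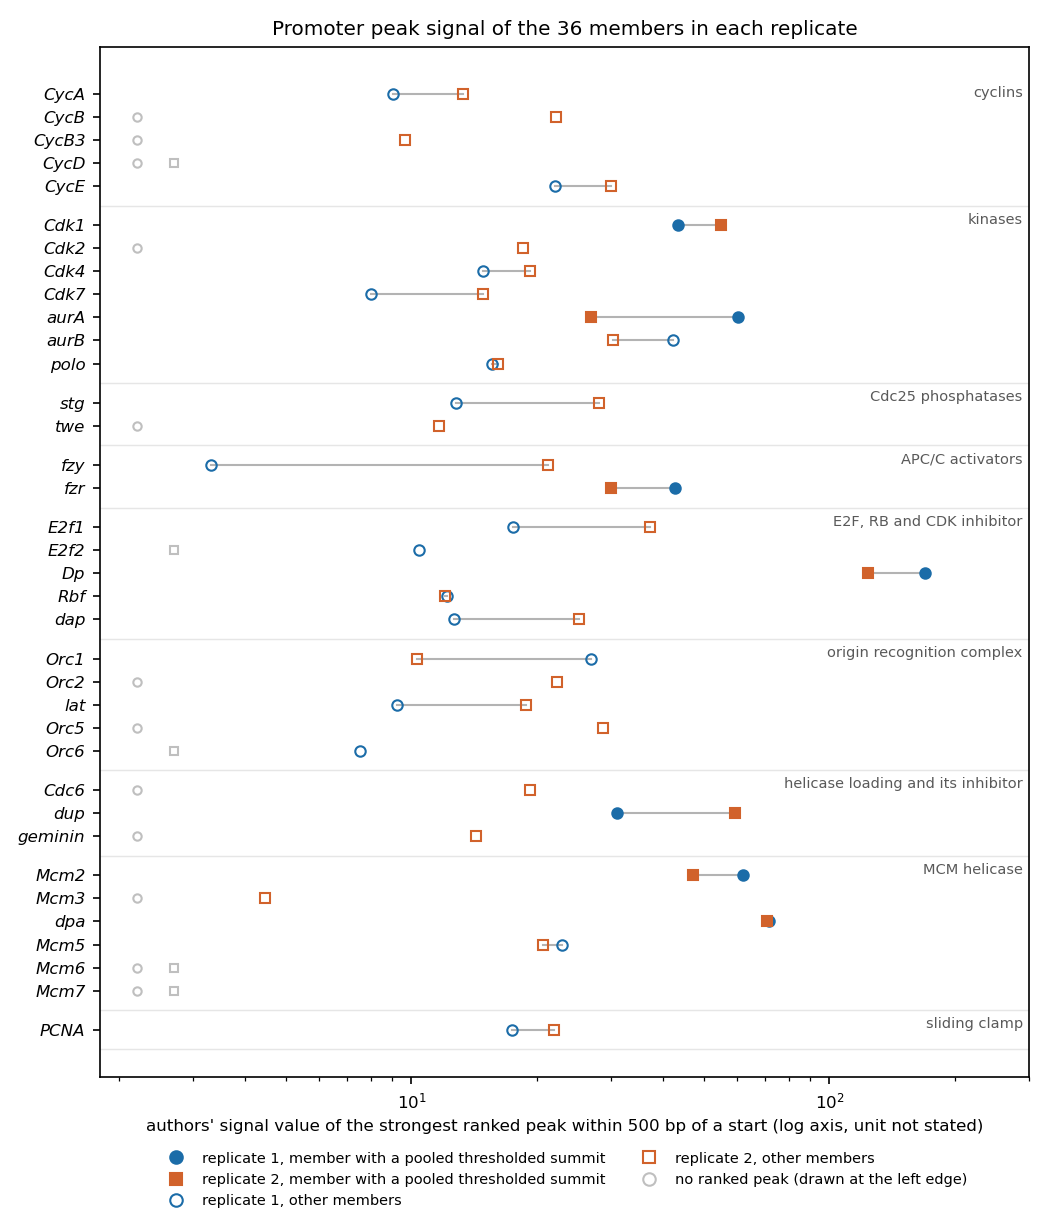
Authors' signal value (log axis, unit not stated) of the strongest ranked peak within 500 bp of a start of each member, with circles for replicate 1 and squares for replicate 2, filled where the member was called in the pooled list. Grey symbols at the left edge mark members without a ranked peak. Dp stands highest in both replicates, and filled symbols run from 26.8 to 169.6.

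E2F and RB genes held the strongest member peak. Dp (FBgn0011763), which encodes the DNA-binding partner of E2F factors, had 2 promoter peaks, both in introns. The stronger ran from 13223304 to 13223460 of 2R, 200 bp upstream of an inner start and 958 bp downstream of the outermost start. Its signal was 169.6 in replicate 1 and 123.8 in replicate 2 (146.7 ± 32.4, SD, n = 2), at rank 367 of the pooled list. The other, from 13223846 to 13224185, had 91.6 in replicate 1 and 69.9 in replicate 2 (80.8 ± 15.4, SD, n = 2). All 4 of these values passed the threshold. With only the outermost start of each gene counted, Dp was not called.

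E2f1 had 3 kept peaks in introns and no called promoter. The strongest lay 4775 bp downstream of the nearest start, with 62.1 in replicate 1 and 74.4 in replicate 2 (68.3 ± 8.74, SD, n = 2), and both passed. Another had 30.8 in replicate 1 and 46.3 in replicate 2, and the third 45.8 in replicate 1 and 20.3 in replicate 2; neither was in a replicate's own kept list. E2f2, the repressive E2F factor, reached a pooled signal of 10.35 near a start, Rbf, the RB protein, 25.6, and dap, the inhibitor of cyclin E with Cdk2, 50.9. The kept peak nearest to E2f2 lay 1922 bp upstream, at the starts of Coq3 and Pld3.

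**Figure D3:**
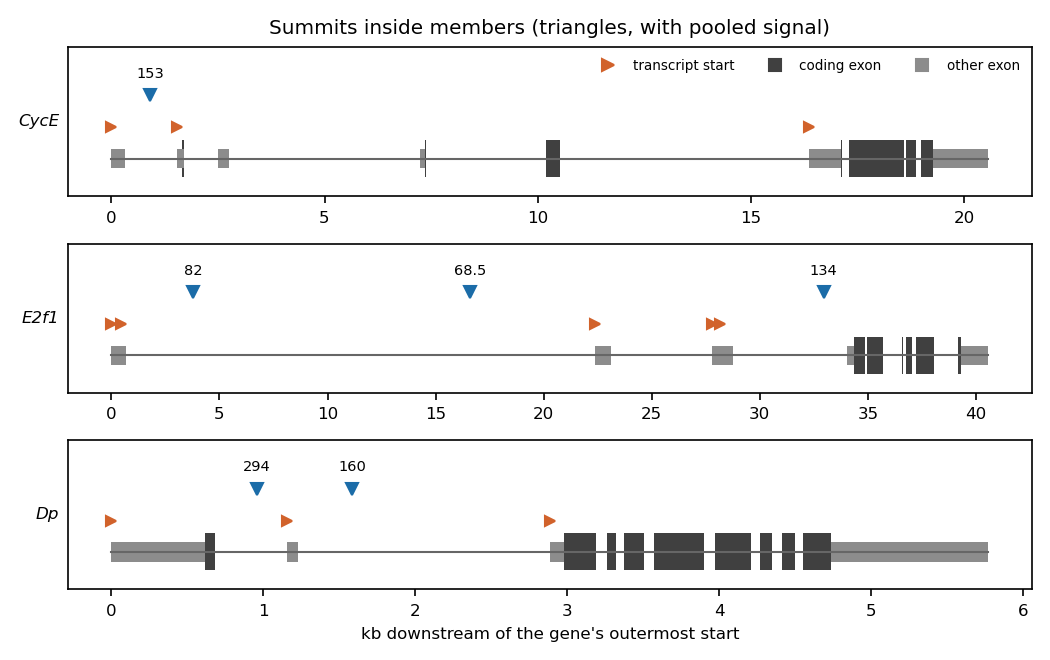
Gene models of CycE, E2f1 and Dp by distance in kb from the outermost start, with exons as boxes, transcript starts as orange arrows and pooled summits as blue triangles labelled with the pooled signal. All 6 summits lie in introns, and E2f1 holds 3 of them.

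A summit lay inside 5 members (13.9%), against 10.0% of coding genes. They were CycE, E2f1, Dp, dup and dpa, and for the last 3 the peak was also the promoter call. CycE and E2f1 are the 2 members of at least 20 kb. Of the 1020 coding genes of that length 46.9% held a summit, so a summit inside a gene of that length was common. With summits within 500 bp of the gene's own starts left out, those 2 members (5.56%) stood beside 7.03% of coding genes, so the member share was then the lower. The median length was 2869 bp for the 36 members and 2164 bp for coding genes.

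Of the APC/C activators, fzr encodes the one of late mitosis and G1, and fzy its Cdc20 counterpart. The fzr peak ran from 4679831 to 4680170 of X, with the summit 464 bp before fzr and within the 3′ UTR of Pp2C1, a protein phosphatase gene. The signal was 42.7 in replicate 1 and 30.1 in replicate 2 (36.4 ± 8.95, SD, n = 2), and neither value passed the replicate's own threshold. The pooled value of 72.4 had an IDR of 0.00608. It was slightly below the 72.9 of aurB, which was not kept, so the signal alone did not set the call. The ranked peak of fzy had a pooled signal of 16.4. Of the Cdc25 phosphatases, stg had 45.4 and twe, the meiotic one, 32.8, and a kept peak with a pooled signal of 65.9 lay 1281 bp upstream of stg, in the 3′ UTR of CG45544.

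Among the MCM genes dpa had the strongest peak. It ran from 7499852 to 7500191 of 2R, in the 5′ UTR, 123 bp downstream of the start of dpa and 125 bp upstream of didum, a myosin gene on the opposite strand. The signal was 71.7 in replicate 1 and 71.1 in replicate 2 (71.4 ± 0.404, SD, n = 2), the smallest SD among the called members. The Mcm2 peak, from 8264724 to 8265063 of 3R, had its summit 76 bp before the Mcm2 start. It had 62.2 in replicate 1 and 47.1 in replicate 2 (54.7 ± 10.7, SD, n = 2), and both passed. The same summit lay 443 bp upstream of RPA1, which encodes the large subunit of the replication protein A that coats single-stranded DNA, so both divergent replication genes were called from 1 peak. Mcm5 reached a pooled signal of 35.0 and Mcm3 2.93, and the kept peaks nearest to Mcm3 lay 1006 and 1206 bp upstream, at the start of Rnp4F. Mcm6 and Mcm7 had no ranked peak near a start in any list.

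The loading factor gene dup had a summit 64 bp upstream of an inner start, in the 5′ UTR, and 46 bp upstream of SRPK, an SR protein kinase gene on the opposite strand. The peak ran from 15380508 to 15380847 of 2R. The signal was 31.0 in replicate 1 and 59.4 in replicate 2 (45.2 ± 20.1, SD, n = 2). Only the value of replicate 2 passed. Cdc6 had a pooled signal of 27.8 and geminin 34.7, each with a ranked peak in replicate 2 alone. In the ORC the pooled signals were 37.2 for Orc1, 25.2 for lat, 20.6 for Orc2 and 7.41 for Orc6, and Orc5 had none in the pooled list. In replicate 2 alone Orc5 had a ranked peak of 28.8, the highest replicate 2 value of the ORC genes. PCNA, the clamp that holds DNA polymerase, reached 42.6.

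**Figure D4:**
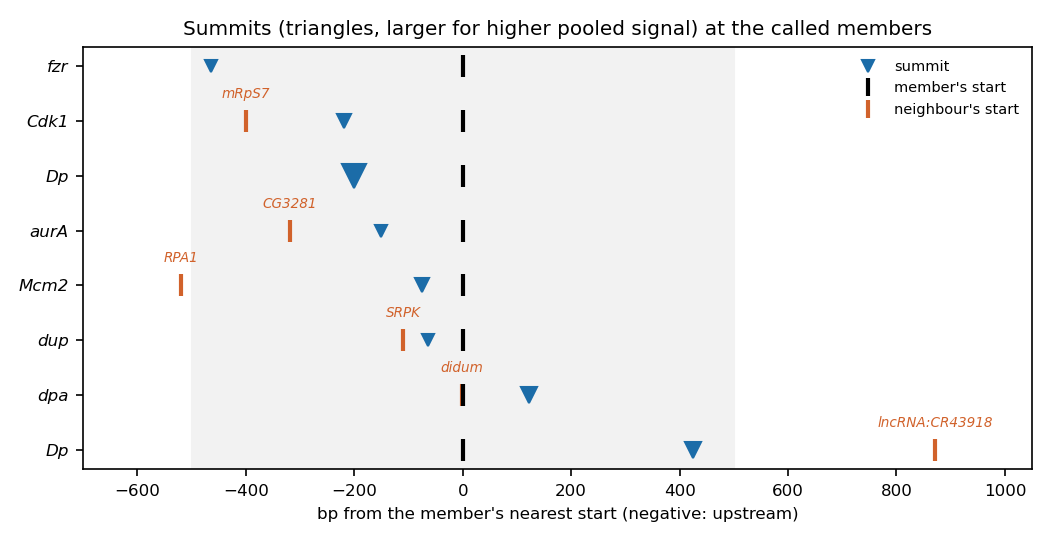
Summits of the 8 promoter peaks of called members (blue triangles, larger for higher pooled signal) by distance in bp from the member's nearest start (black bars, negative upstream); orange bars mark starts of other genes within 500 bp of the summit. Summits of 6 peaks lie upstream, 64 to 464 bp away, and 5 have the start of a coding neighbour nearby.

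Some called promoters were shared. Of their 8 peaks 5 lay within 500 bp of the starts of 2 or more coding genes (62.5%), against 39.3% of the 1442 promoter peaks of coding genes. Members' peaks were reached by way of genes, so a shared peak could enter from either gene, while the 39.3% counts each peak once. The shares are therefore not like for like, and more sharing at these genes cannot be read from them. In all 5 cases the neighbour lay on the opposite strand, and for Cdk1 and dup its start was the nearer. Which gene these peaks act on, if any, was not measured. Summits lay a median of 175 bp from the member's start, and 127 bp from the nearest coding start over all promoter peaks. The first is to the member's own start even where a neighbour's is nearer, so these medians are not like for like. A window of 100 bp kept Mcm2 and dup, 2 of 36 members, beside 3.97% of coding genes. A window of 1000 bp added CycE and Cdk4, 9 of 36 members, beside 16.5% of coding genes. Widths say little of the site: 82.0% of the pooled peaks on the arms, and 11 of the 12 promoter or intragenic peaks of members, were exactly 340 bp wide.

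The 8 promoter peaks of called members had a median pooled signal of 100.7, below the 127.9 of the promoter peaks of coding genes. With only the stronger 1776 pooled peaks, Dp and dpa kept the call, and Cdk1, Mcm2, aurA, dup and fzr lost it. Before the threshold, 31 of 36 members had a ranked peak near a start. The median pooled signal over all 36, with absent peaks at 0, was 30.3, and 26.9 for coding genes. Members not called had at most 42.4 in replicate 1 and 37.25 in replicate 2. Called members had at least 31.0 in replicate 1 and 26.8 in replicate 2, so the ranges overlapped. Of the 36 members, 12 had no ranked peak in replicate 1 (33.3%), against 31.0% of coding genes. In replicate 2, 5 members had none (13.9%), against 28.3% of coding genes. CycD, Mcm6 and Mcm7 had none in either replicate.

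**Figure D5:**
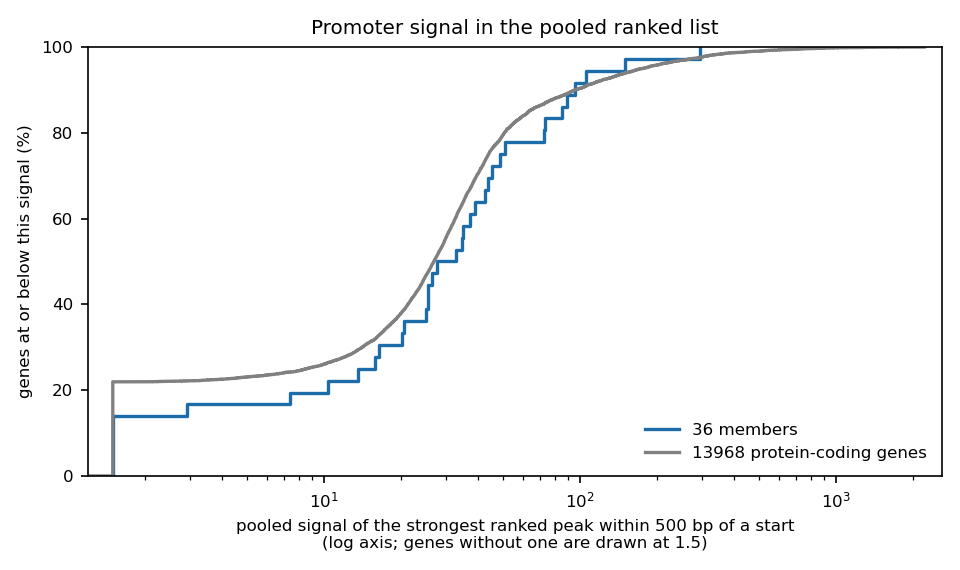
Cumulative share of genes in percent by pooled signal of the strongest ranked peak within 500 bp of a start (log axis), for the 36 members and all 13968 protein-coding genes; genes without a ranked peak are drawn at the left edge. The curves run close together, with medians of 30.3 and 26.9, and no member exceeds 294.0.

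Licensing promoters held E2F letters more often than cyclin and kinase promoters in these counts, which were not tested. Promoters here reach from 250 bp before the outermost start to 50 bp after it. Any of the E2F letters TTTCCCGC, TTTCGCGC, TTTGCCGC or TTTGGCGC, on either strand, were in 0 of 12 cyclin and kinase promoters, 8 of 14 licensing promoters and 6.41% of coding promoters. The licensing genes were Mcm2, Mcm3, Mcm5, Mcm6, Orc1, Orc5, Orc6 and lat, and stg made 9 of 36. The DRE letters TATCGATA were in 6 of 36 members (16.7%), against 9.36% of coding promoters. Those were CycA, Cdk2, Orc2, Orc5, lat and PCNA. Of the 7 called members 0 had the DRE letters and 1, Mcm2, had E2F letters in its promoter. Of the 29 others 6 had the DRE letters and 8 the E2F letters. The TATA box letters were in 5 of the 7 and 12 of the 29, GAGAG in 1 and 7, and the homeodomain letters in 1 and 6. These splits cover only the stretch around the outermost start, while calls used any start. Summits of dpa, dup and Dp lay 123, 310 and at least 958 bp downstream of that start, and that of fzr 464 bp upstream. All 4 lie outside the stretch, so the splits do not describe the sequence under those peaks. Within 50 bp of the 12 promoter or intragenic summits, the E2F letters occurred in dup alone and the DRE letters in none, with 1.35% and 0.873% over all pooled summits. The TATA box letters were in 3 of these windows and the homeodomain letters in 2, with 21.6% and 10.3% over all pooled summits. Over member promoters the TATA box letters were in 47.2%, GAGAG in 22.2% and the homeodomain letters in 19.4%, beside 45.8%, 29.7% and 20.4% of coding promoters. The E-box letters CACGTG and the CTCF core letters AGATGGCG were in no member promoter. A match says only that the letters are present.

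Sites of some members without a called peak are shown on the gene's strand of dm6, with the DRE or E2F letters in capitals. They were picked because they hold these letters, and the peak sequences by summit, so the display is no contrast between called and other members. Called members hold E2F letters too, Mcm2 in its promoter and dup near its summit. The sites of CycA, Cdk2 and Orc5 hold the DRE, at chr3L:11833571-11833600, chr3R:20735551-20735580 and chr2L:13829756-13829785. Those of Mcm3, Mcm6 and stg hold E2F letters, at chrX:5323838-5323867, chrX:6674389-6674418 and chr3R:29255795-29255824.
CycA: acgccacgaccTATCGATAgctggacagtg
Cdk2: taaggaattctTATCGATAtgtggcgctgc
Orc5: ttatttcgttaTATCGATAtttttcgattg
Mcm3: cacactacgctTTTCCCGCgaaaaaacttt
Mcm6: gtcagaaaaagGCGCCAAAaccgagcaaag
stg: taaaagctcgcGCGCCAAAatcagtggcct
The Mcm6 and stg letters read TTTGGCGC on the other strand. No ranked peak lay near the starts of Mcm6, and that near stg had a pooled signal of 45.4.

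A wider list of 99 further cell cycle and replication genes was called at 14.1%, beside 13.7% of coding genes. Of its 14 called genes the strongest peaks were at PolD2, a subunit of DNA polymerase delta, mei-41, the ATR checkpoint kinase, SA1, a cohesin subunit, RnrS, the small subunit of ribonucleotide reductase, and Cdc16, an APC/C subunit. The PolD2 peak had 185.6 in replicate 1 and 193.3 in replicate 2 (189.4 ± 5.49, SD, n = 2), and that of mei-41 196.8 in replicate 1 and 177.0 in replicate 2 (186.9 ± 14.0, SD, n = 2). The means over replicates were 158.2 ± 7.01 for SA1, 146.5 ± 10.95 for RnrS and 143.6 ± 26.3 for Cdc16 (SD, n = 2 each). All 5 had values that passed in both replicates, and all 5 summits lay within 500 bp of the start of another gene, such as TH1 beside mei-41. By theme, 0 of 15 genes listed with further cyclins and Cdks were called, a list that also holds CkIIalpha, Cks30A, Cks85A and mnb. Calls were made for 3 of 17 mitotic entry and checkpoint genes, 2 of 16 APC/C and SCF genes and 1 of 6 E2F and RB genes. Among replisome and origin genes, with RnrL, RnrS and Top2 listed there, 5 of 33 were called. Of the cohesin and condensin list, which also holds pim, thr and Sse, 3 of 12 were called. Bub3 and Cap-D2 shared 1 peak, as Mcm2 and RPA1 did.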

How the data were processed

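Per the labels, chromatin of whole embryos was sonicated to 200 to 800 bp and the coordinates are on dm6. The authors deposited, for each replicate and for the pooled replicates, a ranked peak list and a list thresholded by the IDR, with a signal value per peak. Ranked lists also carry the −log10 of each peak's global IDR as deposited. All kept pooled peaks had a global IDR of 0.01 or lower. Peak caller, aligner and read depth: not given in the sources used here. In the ranked lists of the whole series 16 columns that name no sample were not used. A summit is the peak start plus its deposited offset, with positions counted from 1. Genes came from Ensembl release 115 and sequence from NCBI's copy of the same assembly, and peaks and genes on the 7 arms were used. Replicate values are those of the strongest peak of the replicate's ranked list that overlapped the pooled peak by at least 1 bp, or that lay within 500 bp of a start where no pooled peak was kept. Python 3.11.15 with numpy 2.4.6 and pandas 2.3.3 was used. The calls were tested on simulated data. The design has 1 group, so no test between groups was made and SDs give the spread between 2 replicates. All 36 members and all called genes of the roles are described, and of the wider list the 5 genes with the strongest peaks were named. Members, lists and motifs were chosen with earlier results of these data known. Alternatives were other windows, other peak lists, each replicate alone, only the outermost start, and any base of a peak in place of its summit.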

Additional observations from a re-analysis of the deposited data

How the results depend on the processing

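The count of 7 called members of 36 was between 5 and 9 with the conservative list, each replicate's list, all peaks passing the IDR, a window of 1000 bp, only the outermost start and any base of the peak. The share of coding genes ran from 9.88% to 16.5% over these settings, and was not counted for all peaks passing the IDR. With only the outermost start it was 11.9%, beside 6 members (16.7%). The count of called members was 2 with a window of 100 bp (5.56%, beside 3.97% of coding genes). It was 2 with the stronger 1776 pooled peaks (5.56%, beside 8.59%) and 4 with peaks in both replicates (11.1%, beside 8.18%). With the stronger peaks the member share was thus below that of coding genes. For cyclin and kinase genes the count of 2 became 0 at 100 bp, 4 at 1000 bp, 4 with any base of the peak, 0 with the stronger peaks and 1 with peaks in both replicates, and it was 1 to 2 with a replicate left out. For licensing genes it was 1 with the stronger peaks. Members with a summit inside numbered 2 when summits within 500 bp of their own starts were left out (5.56%), below the 7.03% of coding genes. The wider list gave 3 at 100 bp (3.03%), 8 with the stronger peaks (8.08%), 9 with peaks in both replicates (9.09%) and 9 to 14 with a replicate left out. The share of coding genes with a promoter summit was 3.97% at 100 bp, 8.59% with the stronger peaks and 8.18% with peaks in both replicates. Their share with a summit inside was 15.1% with any base of the peak, 5.94% with the stronger peaks and 5.71% with peaks in both replicates. The stronger peaks and the peaks in both replicates are smaller sets than the pooled list, and 100 bp is a narrower window. Why the counts changed was not tested. No paired analysis was possible because the labels give 1 group. With 36 genes and 2 replicates, 1 gene moves a member share by several points, and the read depth that limits weak ranked peaks is unknown.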
